A study of Rattus norvegicus with 81 samples.

Results

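The comparison set the mammary glands of female Sprague-Dawley rats given methyl paraben (MPB) from postnatal day (PND) 21 to 41 against those of rats given triclosan (TCS) over the same days. Its members were set by their treatment and window labels, with earlier results of these data known. They were 8 of the 81 arrays of the series: 5 of MPB and 3 of TCS. Both groups were killed at PND 42. The chemicals reached the pups in the milk of dosed dams until weaning and then by daily oral gavage, and doses are not stated in the labels. The 5 rats given the vehicle, olive oil (OIL), over the same window and killed at the same age were kept in the fit and are shown beside them. RNA of all 13 glands, the 5th caudal pair, was extracted with the Promega kit, and each array held RNA labelled as a separate sample. Whether animals of a group shared a litter was not stated in the sources used here, so the p-values measure the spread between these arrays.

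Methyl paraben is the methyl ester of para-hydroxybenzoic acid, a preservative of cosmetics and foods that binds estrogen receptors weakly. Triclosan is a chlorinated phenoxyphenol, an antibacterial agent that inhibits bacterial fatty acid synthesis and has been studied for effects on thyroid hormone. The window covers the run-up to puberty, when estrogen, growth hormone and local ligands of the epidermal growth factor (EGF) receptor family make the ducts grow through the fat pad, with dividing cells in the terminal end buds.

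The values are log2 expression after the authors' RMA, a method that corrects background, normalizes quantiles over arrays and summarises probes, so 1 unit is a doubling. A difference is MPB minus TCS, from a model that also held OIL and the batch label. The TCS arrays were all of batch 1, whereas MPB and OIL held 3 arrays of batch 1 and 2 of batch 2. The batch term passed the threshold for 4519 of 18166 genes, so batch-1 values are given where they bear on a result. Arrays correlated with each other as closely across the chemicals (median r = 0.9732 for MPB with TCS) as within them (0.9656 within MPB and 0.974 within TCS).

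Glands differed in muscle transcripts within MPB and OIL, and in lymphoid transcripts within each group. A list's score in an array averages, over its members, how far each gene lay from its own mean of the 13 arrays. The skeletal muscle score was 3.84 in MPB replicate 4 and at most -0.505 in the TCS arrays, while in OIL it reached 2.10. The B cell and lymph node score was 1.48, 1.81 and 1.68 in MPB replicates 1, 3 and 5 and 1.80 in TCS replicate 3, and its highest value in OIL was 0.517. In bulk tissue the number of cells of a type and the RNA per cell cannot be told apart. Ms4a1, which encodes the B cell antigen CD20, lay between 6.42 and 10.46 in MPB, between 6.12 and 10.22 in TCS and between 6.12 and 9.03 in OIL.

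No gene passed the threshold between MPB and TCS glands. By limma with Benjamini-Hochberg adjustment, 0 of 18166 genes (0%) had an adjusted p under 0.05, and the smallest adjusted p was 0.206, for Plk3. An unadjusted p under 0.05 was reached by 610 genes, or 3.36%, where 908 would be expected by chance if no gene differed. Of these, 182 (1%) were higher and 428 (2.36%) were lower in MPB. The median difference over all genes was -0.0085, and 74 genes (0.407%) differed by more than 1 on the log2 scale. The standard error (SE) of a difference had a median of 0.138. The 95% interval, not adjusted for the number of genes, reached a median of 0.3 to either side. A difference within that range could not be told from 0 for a typical gene, and larger differences were not called after adjustment either. Without TCS replicate 3, the TCS array rich in B cell transcripts, 1537 genes reached an unadjusted p under 0.05. Without TCS replicate 1 that number was 385 and without TCS replicate 2 it was 359, and no gene was called in any of these 3 fits.

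Against the vehicle, neither chemical gave a call at this age: 0 genes (0%) in MPB minus OIL and 0 (0%) in TCS minus OIL had an adjusted p under 0.05 by limma. An unadjusted p under 0.05 was reached by 1788 genes (9.84%) in MPB minus OIL and 364 (2%) in TCS minus OIL. The 2 comparisons share the OIL arrays. Every MPB array lay above every TCS array for 194 genes (1.07%) and below for 317 (1.75%).

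The genes with the smallest p in the lower direction were led by Plk3, a stress-responsive polo-like kinase. Plk3 stood at 8.33, 8.07, 8.24, 8.12 and 8.07 in MPB, at 8.84, 8.94 and 8.81 in TCS and at 8.52, 8.52, 8.60, 8.40 and 8.65 in OIL. The 3 groups did not overlap, with OIL between the chemicals. The difference was -0.67 ± 0.09 (SE, 95% interval -0.87 to -0.46), with an adjusted p of 0.206 by limma. In batch 1 alone it was -0.65.

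Spry2 encodes a Sprouty protein, an inhibitor of receptor tyrosine kinase signalling that growth factors induce. Its values were 8.68, 8.68, 8.71, 8.50 and 8.68 in MPB, 9.36, 9.34 and 8.94 in TCS and 9.08, 9.06, 9.23, 9.25 and 9.31 in OIL. MPB lay below both other groups without overlap, whereas TCS and OIL overlapped. Spry2 differed by -0.57 ± 0.12 between MPB and TCS and by -0.54 ± 0.09 between MPB and OIL (adjusted p = 0.999 and 0.467 by limma).

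Zbtb16, a zinc finger transcription factor (PLZF) that glucocorticoids and progestins induce, showed the other arrangement. It stood at 8.58, 8.54, 8.72, 8.29 and 9.02 in MPB, 9.81, 9.82 and 9.00 in TCS and 8.57, 8.32, 8.52, 9.20 and 9.10 in OIL. TCS replicates 1 and 2 were the highest arrays, and TCS replicate 3 lay among the others. The difference was -1.05 ± 0.23 for MPB minus TCS and -0.11 ± 0.19 for MPB minus OIL (adjusted p = 0.999 and 0.859 by limma).

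Clca5, of the family of calcium-activated chloride channel regulators, had the most negative difference of these genes. It measured 9.05, 8.77, 9.13, 8.75 and 8.97 in MPB, 10.61, 9.95 and 10.38 in TCS and 10.32, 8.59, 10.63, 10.70 and 10.56 in OIL. Every MPB array lay below every TCS array, and OIL replicate 2 alone of the OIL arrays lay as low as MPB. The difference was -1.51 ± 0.40 (adjusted p = 0.999 by limma). The transcript of Mir145, the precursor of a miRNA of smooth muscle, had means of 7.26 ± 0.17 in MPB (SD, n = 5), 8.24 ± 0.27 in TCS (n = 3) and 8.24 ± 0.52 in OIL (n = 5). The array measures this transcript and not the mature miRNA. OIL replicate 2, at 7.35, was again the OIL array that lay with MPB.

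**Figure D1:**
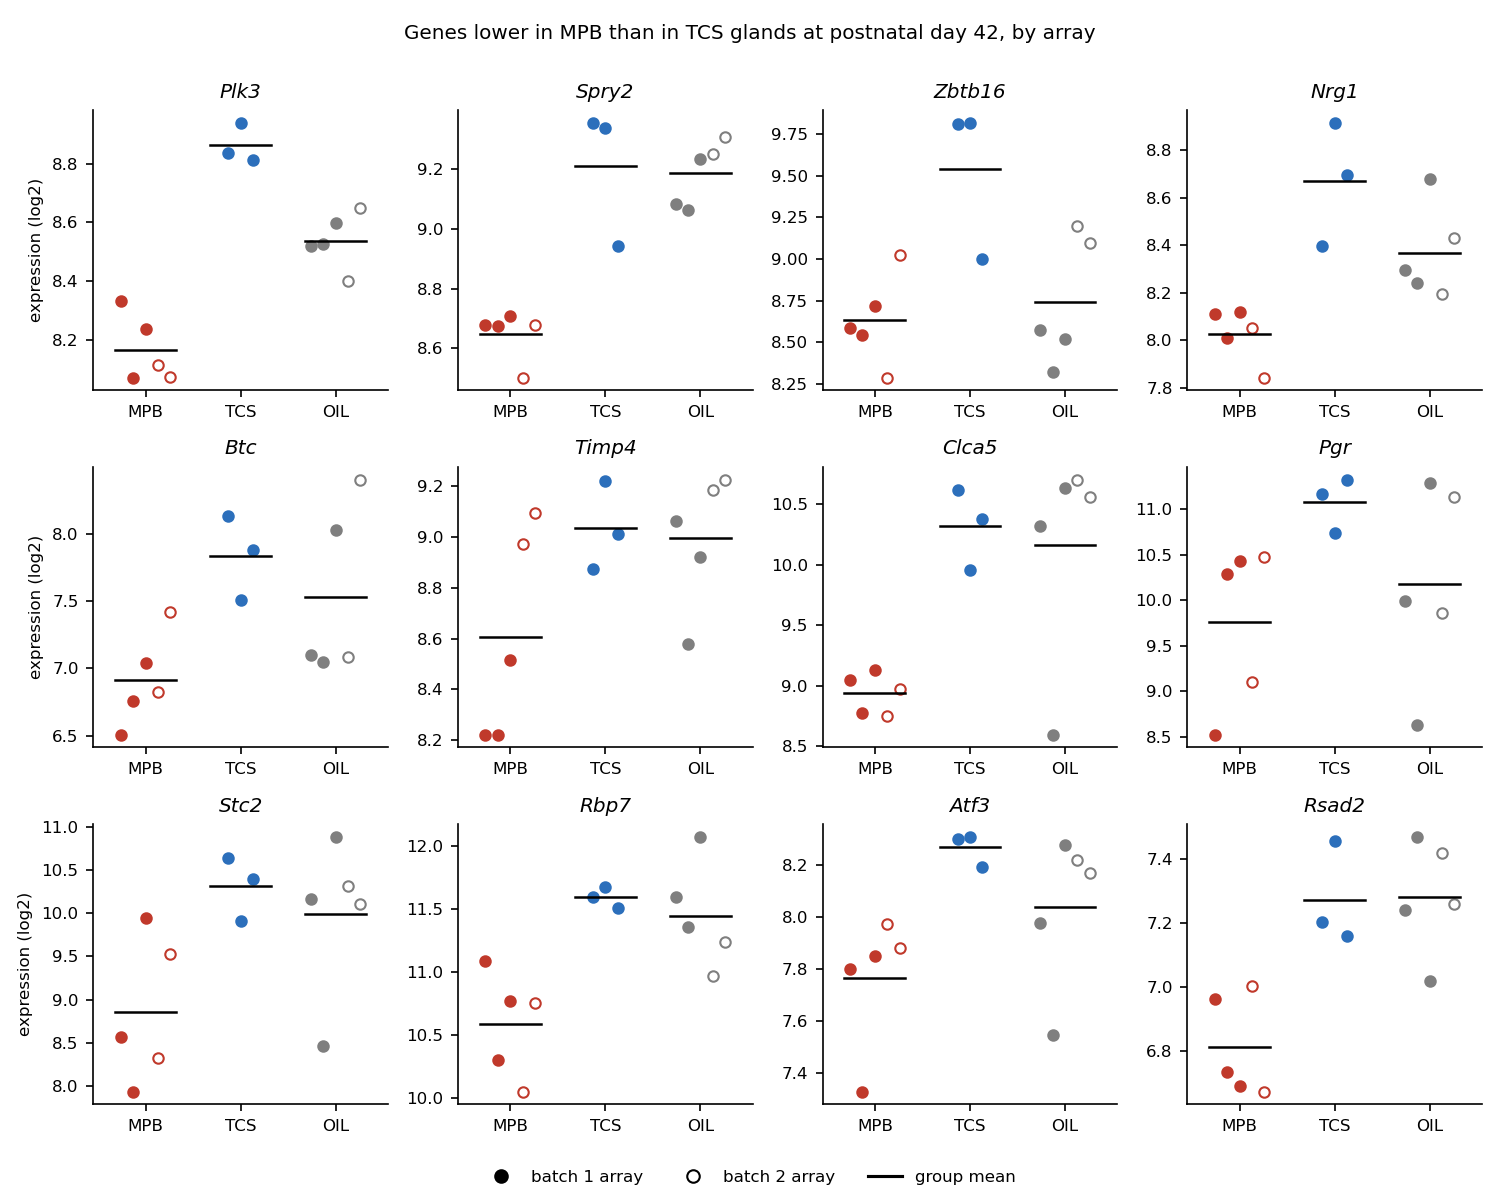
Log2 expression (vertical axes) of 12 genes in each array of the MPB, TCS and OIL groups at PND 42, with batch 1 arrays filled, batch 2 arrays open and a bar at the group mean. Plk3 lay at 8.07 to 8.33 in MPB and at 8.81 to 8.94 in TCS, and OIL replicate 2 lay low for Clca5 and Stc2. No gene shown passed the threshold.

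The other genes of this direction were Timp4, an inhibitor of matrix metalloproteinases (-0.64 ± 0.14), Nrg1, the olfactory receptor Or2ak6 (-0.40 ± 0.10), Ttc19, a factor for assembly of mitochondrial complex III (-0.31 ± 0.08), and the protease inhibitor Serpinb9d (-0.40 ± 0.10). Timp4 showed how batch entered: in MPB it was 8.22, 8.22 and 8.52 in batch 1 and 8.97 and 9.10 in batch 2, against 8.87, 9.22 and 9.01 in TCS. The difference within batch 1 was -0.71, and over all MPB arrays the 2 groups overlapped.

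In the higher direction the differences were smaller, and several genes lay near the low end of the scale. Sbk1, a serine/threonine kinase, stood at 7.64, 7.57, 7.91, 7.04 and 7.19 in MPB, 6.65, 6.64 and 7.61 in TCS and 6.91, 7.07, 6.86, 6.61 and 6.46 in OIL. TCS replicate 3 lay within the MPB range, and the difference was 0.70 ± 0.20 (adjusted p = 0.999 by limma). Ropn1l, which encodes a ropporin-like protein of cilia and flagella, averaged 4.40 ± 0.08 in MPB, 3.98 ± 0.09 in TCS and 4.22 ± 0.12 in OIL (SD, n = 5, 3 and 5). These were among the lowest levels of the named genes. Rtl6, a gene derived from a retrotransposon, lay between 8.15 and 8.26 in MPB, between 7.57 and 7.98 in TCS and between 7.83 and 8.29 in OIL.

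Eef1g, a translation elongation factor, and Ndufb11, a subunit of respiratory complex I, differed between the batches in MPB. Eef1g was 11.89, 11.93, 11.94, 12.62 and 12.65 in MPB, with the last pair in batch 2, and 11.60, 11.63 and 11.72 in TCS. Its difference was 0.24 ± 0.08 in the model and 0.27 in batch 1. Ndufb11 averaged 10.44 in MPB and 10.40 in TCS, and its difference was 0.42 ± 0.14 with batch as a term and 0.38 in batch 1. Rplp0l1 (0.45 ± 0.14), Slitrk5 (0.27 ± 0.09) and the olfactory receptors Or8b1 (0.44 ± 0.13), Or13p9 (0.50 ± 0.15) and Or11h4c (0.37 ± 0.12) made up the rest. Whether Rplp0l1 and Eef1g share probes with related copies was not tested.

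**Figure D2:**
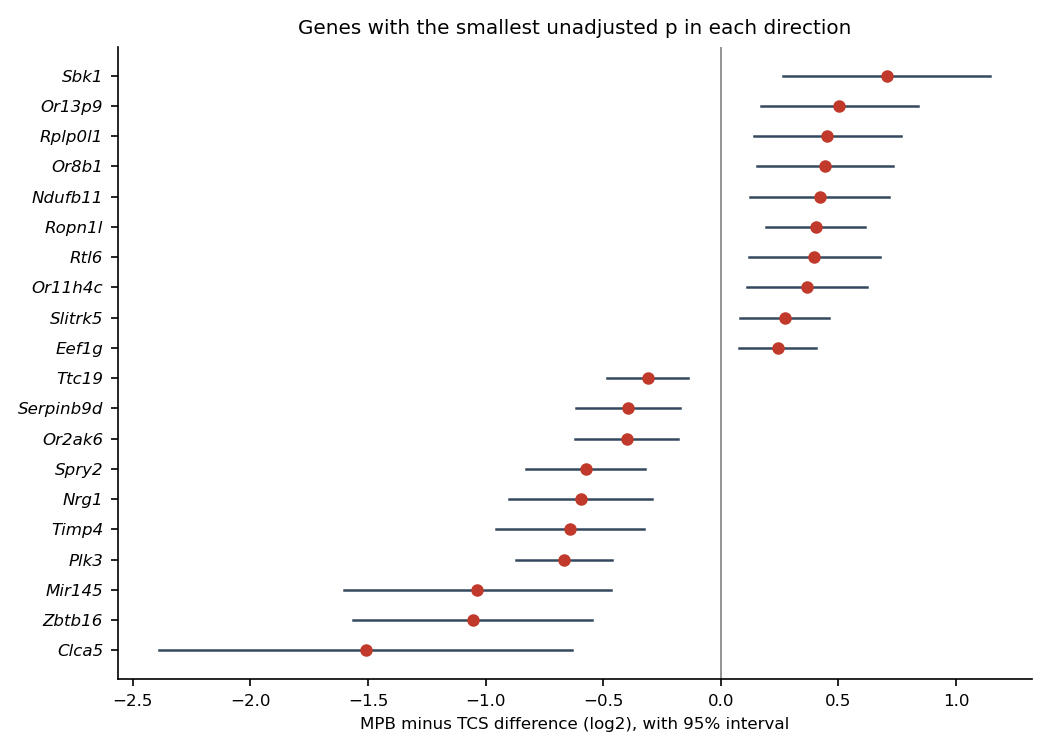
MPB minus TCS difference on the log2 scale (horizontal axis) with its 95% interval for the 10 genes of each direction with the smallest unadjusted p. Clca5 had the lowest value, -1.51, and Sbk1 the highest, 0.70, and no gene passed the threshold after adjustment.

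No ligand or receptor of the EGF family passed the threshold. Of 12 measured members, 11 had a value below 0 and 2, Nrg1 and Btc, had an unadjusted p under 0.05, against 3.36% of all genes. The median was -0.249, against -0.0085 over all genes, of which 52.5% lay below 0. Nrg1 encodes neuregulin, the ligand of the ERBB3 and ERBB4 receptors. It stood at 8.11, 8.01, 8.12, 8.05 and 7.84 in MPB, 8.40, 8.92 and 8.70 in TCS and 8.30, 8.24, 8.68, 8.19 and 8.43 in OIL. MPB lay below both other groups, with a difference from TCS of -0.60 ± 0.14 (adjusted p = 0.999 by limma).

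Btc encodes betacellulin, a ligand of EGFR and ERBB4. Its values were 6.51, 6.76, 7.04, 6.83 and 7.42 in MPB, 8.13, 7.51 and 7.88 in TCS and 7.10, 7.05, 8.03, 7.09 and 8.40 in OIL. MPB and TCS did not overlap, and OIL spanned the TCS range and overlapped MPB. The difference was -1.07 ± 0.32 (adjusted p = 0.999 by limma). Egfr, the receptor, averaged 10.14 ± 0.23 in MPB, 10.44 ± 0.43 in TCS and 10.67 ± 0.23 in OIL (SD, n = 5, 3 and 5), and the ligand Ereg (epiregulin) 5.86 ± 0.17, 6.21 ± 0.49 and 5.86 ± 0.29 in the same groups. Areg, the amphiregulin gene, which mediates estrogen-driven duct growth in mice, differed by -0.56 with a 95% interval of -1.67 to 0.55. The score of the whole list lay between -0.308 and -0.032 in MPB, between 0.153 and 0.214 in TCS and between -0.12 and 0.296 in OIL. This separation was not particular to the list. Scores for prolactin and STAT5 signalling, glucocorticoid response, circadian clock and immediate early genes also lay lower in every MPB array than in every TCS array.

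Among hormone receptors, 10 of 12 measured members were below 0, against 52.5% of all genes. An unadjusted p under 0.05 was reached by 2, Pgr and Insr, against 3.36% of all genes. The median of -0.157 was -0.324 without TCS replicate 3 and -0.0636 without TCS replicate 2. Pgr, the progesterone receptor and a classical estrogen target, measured 8.52, 10.29, 10.43, 9.10 and 10.48 in MPB, 11.17, 10.73 and 11.32 in TCS and 9.99, 8.63, 11.28, 9.86 and 11.13 in OIL. Every MPB array lay below every TCS array, and OIL reached into both ranges. The difference was -1.43 ± 0.63, with a 95% interval of -2.79 to -0.07 (adjusted p = 0.999 by limma). Insr, the insulin receptor, averaged 8.93 ± 0.24 in MPB, 9.43 ± 0.36 in TCS and 9.39 ± 0.23 in OIL (SD, n = 5, 3 and 5). Esr1, the estrogen receptor alpha gene, differed by 0.12 ± 0.24 and Nr3c1, the glucocorticoid receptor gene, by -0.10 ± 0.08.

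Genes that respond to estrogen and progesterone gave no common direction: 5 of 16 were above 0, against 47.5% of all genes. The median was -0.0333 and 1, Stc2, had an unadjusted p under 0.05, against 3.36% of all genes. Stc2 encodes stanniocalcin 2, a secreted glycoprotein. It was 8.57, 7.93, 9.94, 8.32 and 9.53 in MPB, 10.64, 9.91 and 10.39 in TCS and 10.17, 8.46, 10.89, 10.32 and 10.11 in OIL. Of the MPB arrays only replicate 3 reached the TCS range, and the difference was -1.55 ± 0.56 (adjusted p = 0.999 by limma). Cxcl12 (-0.38 ± 0.22), a chemokine, and the estrogen receptor coactivator Cited1 (0.34 ± 0.27) lay on opposite sides of 0.

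All 9 measured genes of prolactin and STAT5 signalling, the route to milk protein expression, were below 0, as were 52.5% of all genes, with a median of -0.295 and none at an unadjusted p under 0.05. Left-out arrays moved this median between -0.349 and -0.131, the smaller size without TCS replicate 1. Prlr, the prolactin receptor, averaged 9.48 ± 0.40 in MPB, 9.99 ± 0.14 in TCS and 9.94 ± 0.36 in OIL (SD, n = 5, 3 and 5). The kinase Jak2 differed by -0.35 ± 0.24, and the feedback inhibitors Socs2 and Cish by -0.33 ± 0.19 and -0.30 ± 0.24. Csn3, the kappa-casein gene, was 12.74, 12.01, 11.56, 10.64 and 11.02 in MPB, 12.95, 11.83 and 11.42 in TCS and between 12.40 and 12.94 in OIL. MPB and TCS overlapped, and OIL lay near the top of both.

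Genes of cell division had the largest median of the 46 lists. All 23 measured members were above 0, as were 47.5% of all genes, and the median was 1.05. None reached an unadjusted p under 0.05, and 5 lay higher in every MPB array than in every TCS array, as did 1.07% of all genes. Plk1 and Top2a were among them. Plk1, a kinase of mitotic entry, was 9.21, 10.87, 9.07, 10.48 and 9.38 in MPB, 8.11, 9.00 and 8.87 in TCS and 7.73, 10.21, 8.49, 8.15 and 8.84 in OIL. Its difference was 1.16 ± 0.58, with a 95% interval of -0.10 to 2.42 (adjusted p = 0.999 by limma).

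Top2a, the DNA topoisomerase of dividing cells, was 9.33, 11.09, 9.37, 10.84 and 9.81 in MPB, 8.28, 9.16 and 9.26 in TCS and 7.69, 10.52, 8.59, 8.72 and 9.29 in OIL. Mki67, the proliferation marker, was 10.43, 11.97, 10.33, 11.92 and 11.01 in MPB and 9.26, 10.31 and 10.36 in TCS. MPB replicates 2 and 4 were the highest in each of these genes, and OIL replicate 2 stood next to them. The kinetochore gene Cenpf differed by 1.22 ± 0.60, the cyclin gene Ccnb1 by 1.18 ± 0.61 and the mitotic kinase gene Aurka by 0.77 ± 0.39.

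The cell cycle score was 0.00, 1.64, -0.09, 1.09 and 0.14 in MPB, -0.92, -0.06 and -0.16 in TCS and -1.25, 1.15, -0.60, -0.67 and -0.26 in OIL. The list's median was 0.989 for MPB minus OIL and -0.0809 for TCS minus OIL. Left-out arrays moved the median between 0.607, without MPB replicate 2, and 1.29, without MPB replicate 3. Without the 4 arrays rich in B cell transcripts, an alternative chosen after the data were seen, it was 2.14. MPB then held only replicates 2 and 4, the arrays with the highest cell cycle scores.

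Promoters of Plk1 and Top2a are shown because this list had the largest median. They are 300 bases each in the RefSeq build GRCr8, from 250 before to 50 after the start, at chr1:186147408-186147707 on the + strand for Plk1 and chr10:84473044-84473343 on the - strand for Top2a. Capitals mark TTTGAA, the core of the cell cycle homology region, and the CCAAT box, each on either strand (TTCAAA and ATTGG in reverse).
Plk1: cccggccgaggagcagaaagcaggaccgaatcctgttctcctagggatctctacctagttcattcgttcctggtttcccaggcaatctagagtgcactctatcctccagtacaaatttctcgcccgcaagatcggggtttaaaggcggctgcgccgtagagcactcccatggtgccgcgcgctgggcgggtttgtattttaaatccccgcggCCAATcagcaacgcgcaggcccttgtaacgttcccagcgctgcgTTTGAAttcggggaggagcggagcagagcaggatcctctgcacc
Top2a: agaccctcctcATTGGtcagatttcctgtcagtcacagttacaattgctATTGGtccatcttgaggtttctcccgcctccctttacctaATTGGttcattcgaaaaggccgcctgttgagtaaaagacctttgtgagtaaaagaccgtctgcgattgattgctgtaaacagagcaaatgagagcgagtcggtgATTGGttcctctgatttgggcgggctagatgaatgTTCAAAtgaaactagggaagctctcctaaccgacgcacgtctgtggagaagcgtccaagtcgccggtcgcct
Of the 23 measured members, 19 matched a promoter. TTTGAA was found in 12 of them (63.2%), against 18.3% of all 33469 rat promoters in the table. CCAAT was found in 14 (73.7%), against 37.5%, and both in 10 (52.6%), against 7.41%. The matches describe the letters in these windows and were not tested.

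**Figure D3:**
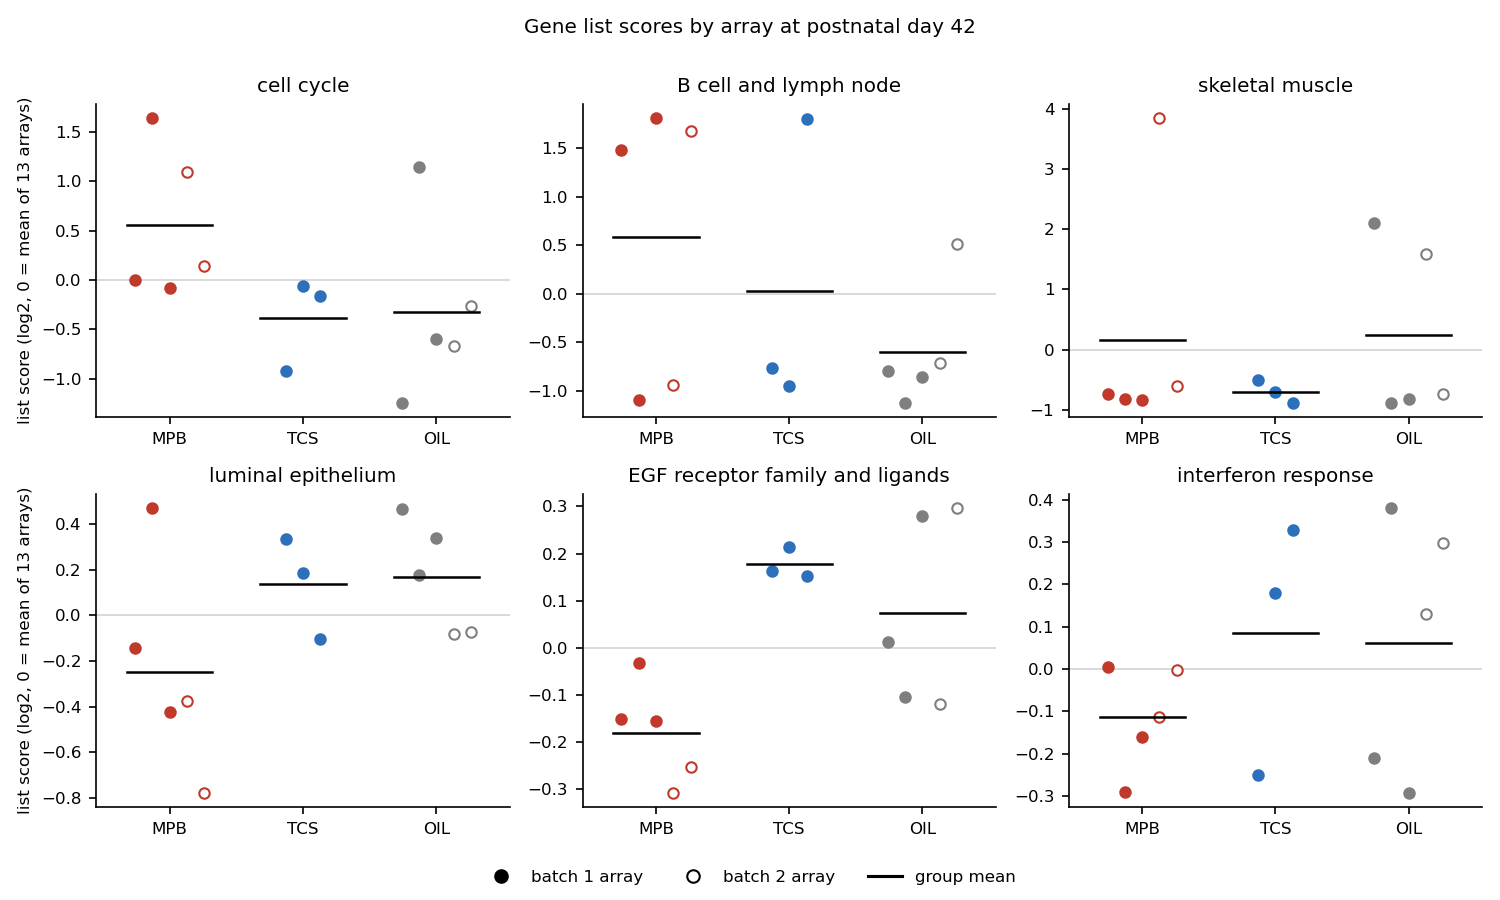
List scores (vertical axes, mean log2 value of the members relative to the 13 arrays) in each array of MPB, TCS and OIL, with batch 2 arrays open and a bar at the group mean. MPB replicates 2 and 4 reached 1.64 and 1.09 for the cell cycle, and MPB replicate 4 reached 3.84 for skeletal muscle. The EGF family lay below 0 in all MPB arrays and above 0 in all TCS arrays. The circadian clock list, not drawn, did the same.

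Of 18 measured interferon response genes, 16 had a value below 0, against 52.5% of all genes, and the median was -0.296. None was called, and 4, all of them lower, had an unadjusted p under 0.05, against 3.36% of all genes. The list's score overlapped between the groups: it was 0.0058, -0.291, -0.16, -0.114 and -0.00145 in MPB and -0.249, 0.179 and 0.328 in TCS, and TCS replicate 1 lay below 4 of the 5 MPB arrays. Left-out arrays moved the median between -0.428, without TCS replicate 1, and -0.218, without TCS replicate 2. Rsad2, which encodes the antiviral enzyme viperin, stood at 6.96, 6.74, 6.69, 7.00 and 6.67 in MPB, 7.20, 7.45 and 7.16 in TCS and 7.24, 7.47, 7.02, 7.42 and 7.26 in OIL. MPB lay below both other groups, and the difference from TCS was -0.49 ± 0.13 (adjusted p = 0.999 by limma). Ifit3 and Ifit2, which bind viral RNA, differed by -0.53 ± 0.19 and -0.38 ± 0.15, and Rtp4, a chaperone of receptors, by -0.35 ± 0.16.

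Other immune lists pointed different ways. Of all genes, 47.5% were above 0, 52.5% were below 0 and 3.36% had an unadjusted p under 0.05. Antigen presentation was above 0 in 13 of 14 members (median 0.256), as were 12 of 14 T and NK cell genes (0.676) and 13 of 14 B cell and lymph node genes (0.545), with 0 at an unadjusted p under 0.05 in each. These medians moved with single arrays. Without TCS replicate 2 they were 0.0115, 0.145 and 0.0482 in that order of lists, and without TCS replicate 3 they were 0.535, 1.64 and 1.40. Without the 4 arrays rich in B cell transcripts all 3 medians turned negative, to -0.0761, -0.351 and -0.25. Those arrays were left out for their high B cell and lymph node scores. Their scores for T and NK cells and antigen presentation were high too. The turn therefore follows in part from the choice of arrays and is no separate result. Skeletal muscle genes were above 0 in 13 of 15 members (median 0.331) with 0 at that p, but the median was -0.0335 in batch 1 and -0.066 without MPB replicate 4. Skin keratinocyte genes were above 0 in 1 of 6 members (median -0.057). Krt2, an epidermal keratin, was the member at an unadjusted p under 0.05 (-0.32 ± 0.13). Complement and acute phase genes were below 0 in 9 of 10 members (median -0.275, and -0.149 without TCS replicate 1), with Cfb, a complement protease, at -0.35 ± 0.17 and Cp, ceruloplasmin, at -0.46 ± 0.31.

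Schwann cells are the glia that wrap nerve fibres. Of their 8 measured markers, 3 had an unadjusted p under 0.05, against 3.36% of all genes. These 3 were lower, and all 8 were below 0, against 52.5% of all genes. The median was -0.229, with -0.355 without MPB replicate 2 and -0.144 without MPB replicate 1. Pmp22, a myelin membrane protein, was 11.85, 11.76, 11.88, 12.75 and 12.08 in MPB and 12.39, 12.45 and 12.12 in TCS. MPB replicate 4, the array rich in muscle transcripts, was the highest of all. The difference was -0.44 ± 0.16 (adjusted p = 0.999 by limma). Cdh19, a cadherin of the lineage, and Prx, periaxin of the myelin sheath, differed by -0.53 ± 0.22 and -0.36 ± 0.15.

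Endothelial markers were below 0 in all 10 measured members, against 52.5% of all genes. Their median was -0.223, or -0.142 without MPB replicate 2. Robo4, a receptor of vessel stability, was 8.30, 7.77, 8.23, 8.36 and 7.97 in MPB, 8.50, 8.67 and 8.41 in TCS and 8.62, 8.29, 8.47, 8.40 and 8.26 in OIL. MPB lay just below TCS without overlap (-0.39 ± 0.15, adjusted p = 0.999 by limma). The growth factor receptor Flt1 and the clotting factor Vwf differed by -0.34 ± 0.16 and -0.22 ± 0.11.

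Immediate early genes, the first transcripts after a stimulus, were below 0 in 14 of 17 members, against 52.5% of all genes. The median was -0.153. It was -0.32 without MPB replicate 3 and -0.0661 without MPB replicate 2. Atf3, a stress-induced transcription factor, was 7.80, 7.33, 7.85, 7.97 and 7.88 in MPB, 8.30, 8.31 and 8.19 in TCS and 7.98, 7.55, 8.28, 8.22 and 8.17 in OIL. MPB lay below TCS without overlap, and OIL lay across the gap. The difference was -0.61 ± 0.16 (adjusted p = 0.999 by limma). Egr1 (-0.36 ± 0.17), Fos (-0.54 ± 0.35) and Jun (-0.36 ± 0.23), transcription factors of the same early response, were lower with wider errors.

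Of 14 circadian clock genes, 10 were below 0, against 52.5% of all genes (median -0.0895, and -0.0438 without MPB replicate 2). Among the 14, 3 lower members and 1 higher member had an unadjusted p under 0.05, against 3.36% of all genes. The repressor Nfil3 was 7.79, 7.66, 7.72, 7.88 and 7.92 in MPB and 8.06, 8.01 and 7.93 in TCS, a difference of -0.27 ± 0.08 (adjusted p = 0.999 by limma). Npas2, a partner of the core clock activator, and the repressor Bhlhe41 differed by -0.45 ± 0.17 and -0.48 ± 0.20. Dbp, a clock output gene, was the higher member, at 0.27 ± 0.12, with means of 9.49 ± 0.20 in MPB, 9.13 ± 0.16 in TCS and 9.77 ± 0.15 in OIL (SD, n = 5, 3 and 5). The labels do not state the time of day of killing. Glucocorticoid response genes were below 0 in 8 of 10 members (median -0.264, and -0.147 without MPB replicate 2), with Zbtb16 alone at an unadjusted p under 0.05 and Klf9 and Per1 at -0.29 ± 0.16 and -0.31 ± 0.23. Of 15 genes of endoplasmic reticulum stress, 14 were below 0 (median -0.165, and -0.081 without MPB replicate 1), led by the chaperones Dnajb9 (-0.27 ± 0.11) and Dnajc3 (-0.29 ± 0.12).

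Fat cell genes were below 0 in 17 of 18 measured members, against 52.5% of all genes (median -0.233). None of them had an unadjusted p under 0.05, against 3.36% of all genes. Without TCS replicate 2 this median was 0.0224. Adipoq, the adiponectin gene, averaged 12.50 ± 0.37 in MPB, 12.45 ± 0.42 in TCS and 12.75 ± 0.20 in OIL (SD, n = 5, 3 and 5), and its 95% interval ran from -0.53 to 0.29. In lipid synthesis, 11 of 15 members were below 0 (median -0.209) and 2 had an unadjusted p under 0.05: Lpin1, a phosphatidate phosphatase (-0.55 ± 0.20), and Acacb, an acetyl-CoA carboxylase (-0.82 ± 0.35). Without TCS replicate 2 the lipid synthesis median was 0.0197.

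Rbp7, a retinol-binding protein of fat and its vessels, was 11.08, 10.30, 10.77, 10.05 and 10.75 in MPB, 11.60, 11.68 and 11.51 in TCS and 11.59, 11.36, 12.07, 10.97 and 11.24 in OIL. Every MPB array lay below every TCS array. Rbp7 differed by -0.83 ± 0.22 from TCS and by -0.85 ± 0.18 from OIL (adjusted p = 0.999 and 0.487 by limma). Of the 15 measured genes of retinoid transport and metabolism, 11 were below 0, against 52.5% of all genes. The 2 at an unadjusted p under 0.05, against 3.36% of all genes, were Rbp7 and the retinoic acid synthase gene Aldh1a2 (-0.45 ± 0.20). The median of -0.159 was -0.00832 without TCS replicate 2. Among matrix metalloproteinases and their inhibitors, 8 of 15 were below 0, and the median of -0.0909 was 0.104 without TCS replicate 2 and -0.304 without TCS replicate 3. Mmp12, the macrophage elastase, was 7.88, 7.52, 8.13, 6.93 and 7.47 in MPB, 9.31, 8.57 and 8.29 in TCS and 9.41, 8.13, 8.61, 8.12 and 7.96 in OIL, a difference from TCS of -0.88 ± 0.30 (adjusted p = 0.999 by limma). MPB and TCS did not overlap.

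**Figure D4:**
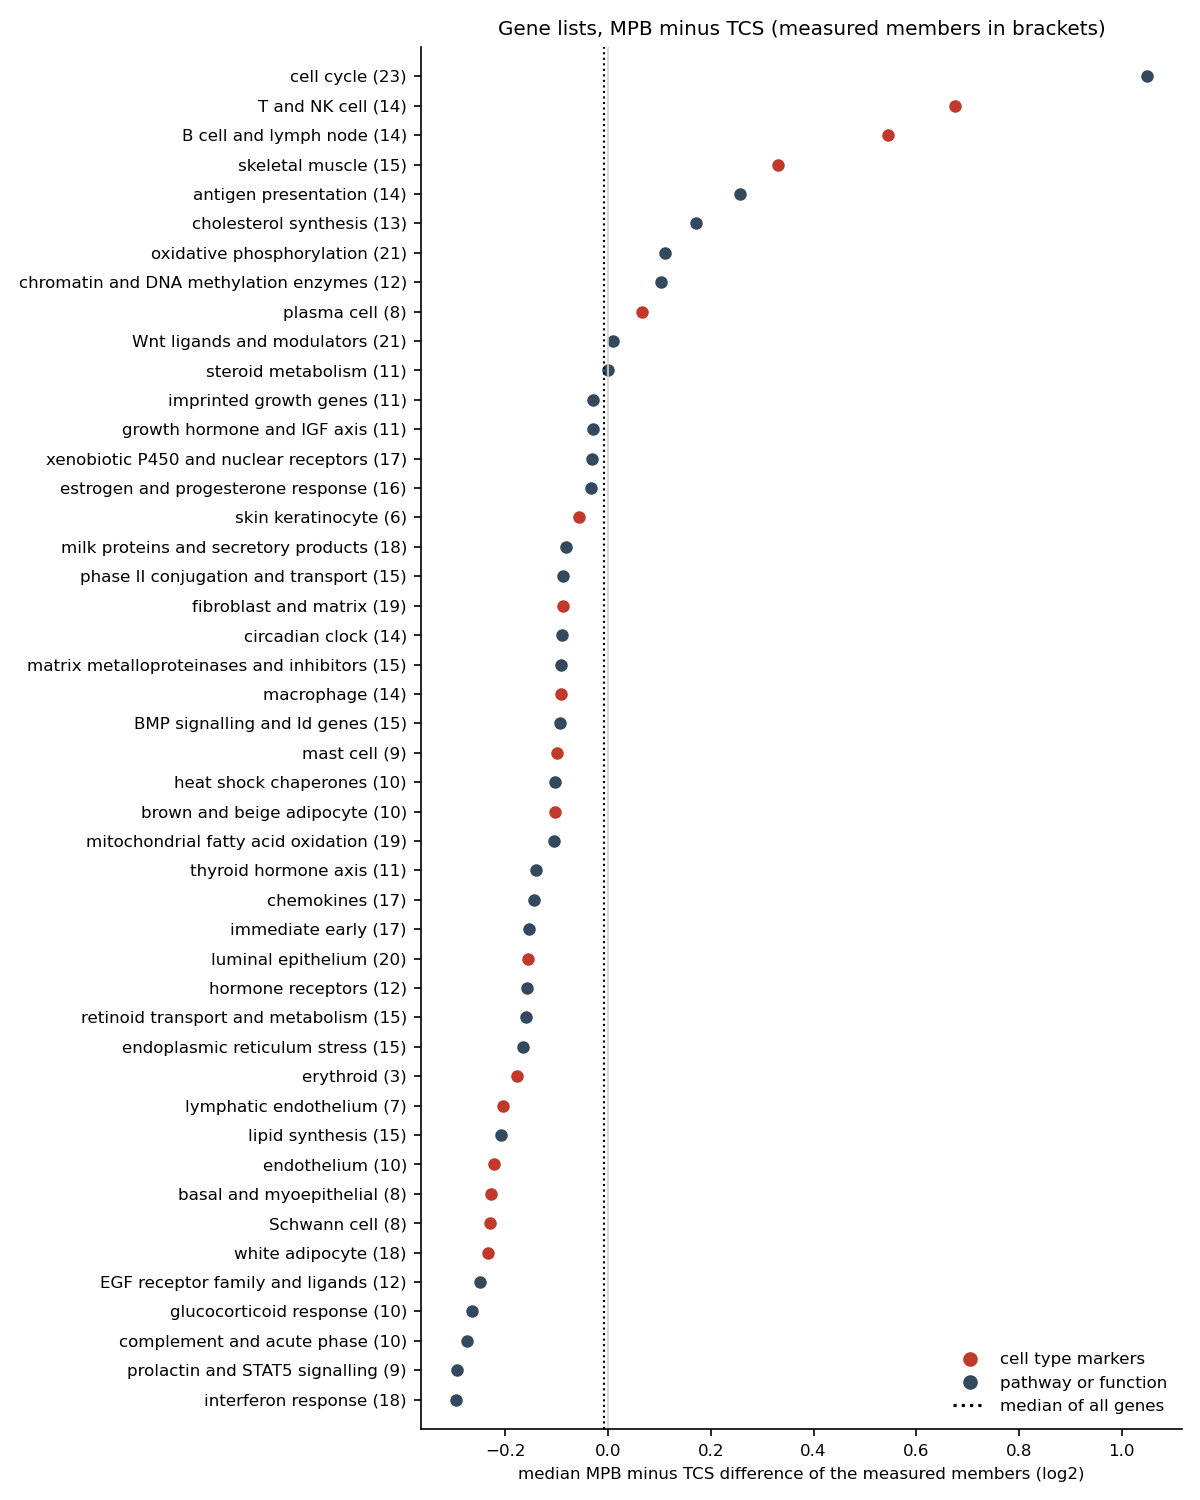
Median MPB minus TCS difference on the log2 scale (horizontal axis) of the measured members of 46 gene lists, with cell type markers in red, other lists in blue and a dotted line at the median of all genes. The cell cycle list stood farthest to the right at 1.05, and 36 of the 46 lists had a median below 0.

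The markers that define the tissue were present in both groups. Krt8, a luminal keratin, averaged 9.02 ± 0.44 in MPB, 9.48 ± 0.25 in TCS and 9.25 ± 0.36 in OIL, and Epcam, an epithelial adhesion molecule, 10.20 ± 0.38, 10.64 ± 0.21 and 10.64 ± 0.24 (SD, n = 5, 3 and 5). The luminal score lay between -0.78 and 0.47 in MPB, between -0.104 and 0.337 in TCS and between -0.0808 and 0.468 in OIL. Of 20 measured luminal epithelium genes, 14 were below 0 and 6 above, against 52.5% and 47.5% of all genes. Krt18, another luminal keratin, and Esr1 were among those above 0. The part of epithelial, lymphoid or muscle content in the differences above was not tested. Alternatives that left out arrays or added a score as a term called no gene. The fit without them called none either, so these counts cannot show that part. The luminal epithelium median was -0.156, and it ran from -0.413 to 0.0855 over 13 alternatives. The alternative that added this list's own score as a term set the mean difference of its members to 0 by construction. Cyp1a1, the sentinel of the aryl hydrocarbon receptor, was at 5.41 to 5.74 in MPB, 5.59 to 5.73 in TCS and 5.54 to 5.76 in OIL, and Cyp1b1 differed by -0.17 ± 0.20. Of 17 genes of xenobiotic P450 enzymes and their nuclear receptors, 6 were above 0, against 47.5% of all genes (median -0.0322). Of these 17, 0 had an unadjusted p under 0.05, against 3.36% of all genes.

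The same contrast of chemicals was available in 3 other windows, and the difference between windows was tested for every gene in 1 model over 55 arrays. Glands of the gestation day (GD) 1-20 and PND 1-20 groups were taken at PND 21 and those of PND 42-62 at PND 63, so exposure window and age at killing cannot be told apart. No gene passed: 0 of 18166 (0%) against GD 1-20, 0 (0%) against PND 1-20 and 0 (0%) against PND 42-62, by limma. An unadjusted p under 0.05 was reached by 1267 genes (6.97%) against GD 1-20, 1065 (5.86%) against PND 1-20 and 885 (4.87%) against PND 42-62. In batch 1 alone, 1255 of 18166 genes were called against GD 1-20, and 0 against the other windows. In that model MPB minus TCS after PND 42-62 had 56 calls (0.308%) of its own, and 0 after PND 1-20 or GD 1-20.

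The genes with the smallest p between windows show what such differences looked like. Their values come from the model over 55 arrays, so those after PND 21-41 can differ from the values of the 13 arrays given above. Mmp12 was at -1.06 ± 0.28 after PND 21-41 and at 0.43 ± 0.28 after PND 42-62. Pappa, a protease of insulin-like growth factor binding proteins, was at -0.24 ± 0.29 and at 1.52 ± 0.29 after the same windows, and Spink8, a protease inhibitor, at -0.79 ± 0.31 and 0.89 ± 0.31 (adjusted p = 0.772 for each of the 3 by limma). Against PND 1-20, Met, the receptor of hepatocyte growth factor, was at -0.57 ± 0.17 after PND 21-41 and 0.29 ± 0.16 after PND 1-20, and Npas2 at -0.53 ± 0.19 and 0.44 ± 0.17 (adjusted p = 0.786 for both by limma). Against GD 1-20, Ddit3, a transcription factor of endoplasmic reticulum stress, was at -0.19 ± 0.10 after PND 21-41 and 0.35 ± 0.09 after GD 1-20, and Trabd2b, an inhibitor of Wnt ligands, at -0.74 ± 0.19 and 0.27 ± 0.17 (adjusted p = 0.709 for both by limma).

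**Figure D5:**
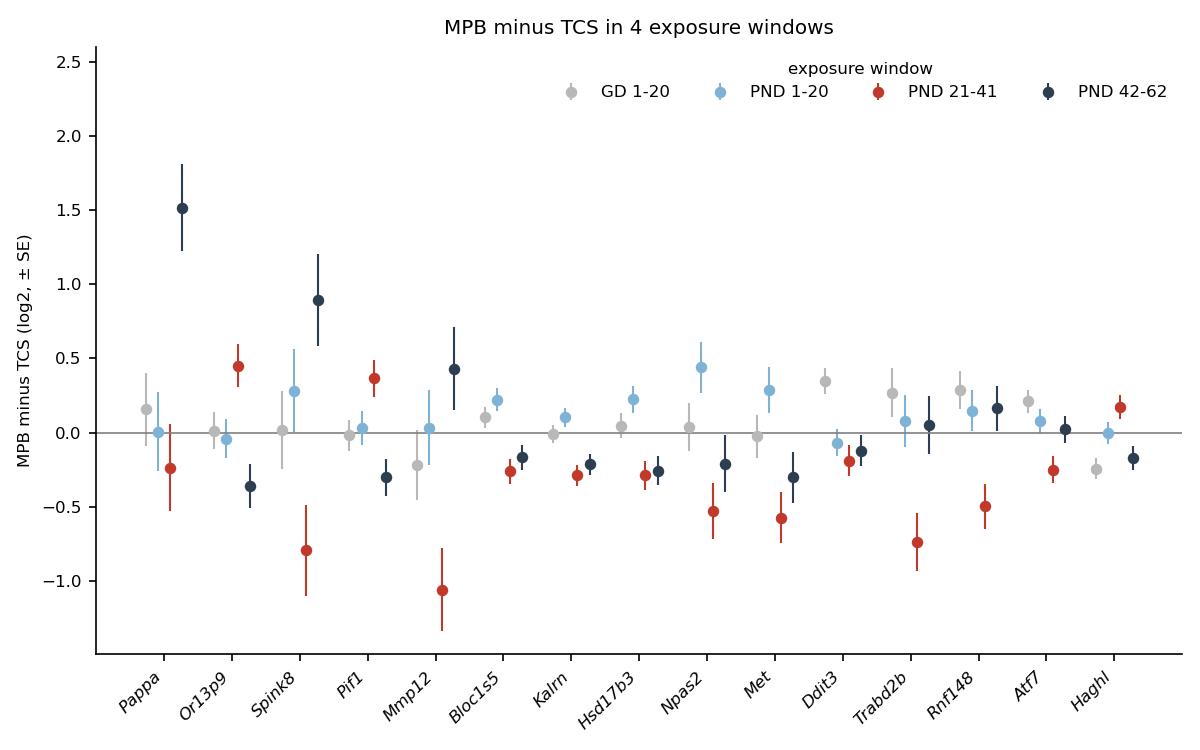
MPB minus TCS difference on the log2 scale ± SE (vertical axis) after each of 4 exposure windows for the 5 genes with the smallest p in each contrast between windows. Mmp12 stood at -1.06 after PND 21-41 and at 0.43 after PND 42-62. No difference between windows passed the threshold in this model over 55 arrays.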

How the data were processed

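The authors deposited log2 expression per transcript cluster. The submitters' processing notes name RMA and the Affymetrix Expression Console, and neither their versions nor a build is given in the sources used here. Each array took 250 ng of RNA (integrity number 7 or more, per the labels' protocols) and measured 36685 clusters. The MPB, TCS and OIL columns had been normalized together: they differed from the MPB and TCS tables that were deposited on their own, by offsets shared with OIL (-0.0699 to -0.0671 for MPB and -0.0694 to -0.0675 for OIL, and 0.0524 to 0.0544 for TCS and 0.0529 to 0.0546 for OIL).

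In the platform annotation 18511 clusters had a single symbol, 575 several and 17599 none, and 18394 matched RefSeq. Each of the 18166 genes was read from its brightest cluster, with no filter. The brightest cluster was chosen over the 13 arrays for the main fit and over the 55 arrays for the model between windows. The 13 arrays were fitted with limma 3.58.1 (lmFit, eBayes) in R 4.3.3 (package data.table, version 1.17.8), with batch as a term. Tests were 2-sided, adjusted by Benjamini-Hochberg over all genes, with a threshold of 0.05. The 46 gene lists (620 of 701 members measured) are described by counts and medians. The text names the 10 genes of smallest p in each direction, and 5 genes per window contrast were picked. For both, symbols starting with LOC, RGD, AABR or AC in capitals were passed over. The text also names the members of smallest p in the described lists and index genes of the tissue. Most described lists were those with the highest share of members at an unadjusted p under 0.05 or the median farthest from all genes. Lists of muscle, lymphoid and antigen presentation genes are given by counts, medians and, for muscle and B cells, scores. Members, lists and rule were chosen with earlier results of these data known, and 3 lists (immediate early, estrogen and progesterone response, endothelium) were added to those described after values were seen. Python 3.11.15 with matplotlib 3.10.9 drew the figures. The number of arrays limits precision.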

Additional observations from a re-analysis of the deposited data

Results flagged for a closer look

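Single arrays stood apart from the other 4 of their group in 27 of 296 comparisons (9.12%), where chance would give about 5%. The comparisons were not independent, since genes were counted beside scores that hold them and the same arrays recur. The share is therefore no test of an excess. MPB replicate 4 was low for Spry2 (8.50) and high for Flt1 (9.86), Prx (8.16), Acta1 (12.9) and Ckm (12.5), and it was high for the skeletal muscle score (3.84) and the fibroblast and matrix score (0.415). MPB replicate 2 was low for Cxcl12 (10.8), C1s (9.58), Atf3 (7.33) and the macrophage score (-0.495), and high for the hormone receptor score (0.147). MPB replicate 5 was high for Trib3 (6.46) and Plin1 (11.9).

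OIL replicate 2 was low for Mir145 (7.35), Clca5 (8.59), Jak2 (9.61), Epcam (10.2) and the lymphatic endothelium score (-0.282), and high for Ccnb1 (9.77). OIL replicate 5 was high for Ms4a1 (9.03) and for the scores of B cells and lymph node (0.517), T and NK cells (0.162) and plasma cells (0.0548), and low for Esr1 (8.89). OIL replicate 3 was high for the estrogen and progesterone response score (0.241), and OIL replicate 1 for the circadian clock score (0.291). TCS, with 3 arrays, was too small to be examined in this way.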

How the results depend on the processing

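The count of 0 called genes between MPB and TCS stayed at 0 under 14 alternatives and in each of 13 fits without a single array, where the smallest adjusted p was 0.0716. The number of genes at an unadjusted p under 0.05 was 374 with MPB and TCS arrays alone, 1034 with all groups of the short windows, 2216 with array weights, 1188 with the muscle and B cell scores added as terms, 1865 without the arrays rich in B cell transcripts (chosen after the data were seen) and 1151 over every one of 36685 clusters. It ranged from 359 to 1537 when single arrays were left out, and the number of lists with a median below 0 from 29 to 38. The window difference against GD 1-20 had 1255 calls in batch 1 alone. The cause was not tested. All 20 genes with the smallest p kept their sign in every one of 26 settings that tested them. They were picked by their p in these same arrays, so the kept signs are no separate support. The sign turned for Acta1 (-0.195 in batch 1 or with MPB and TCS alone, -0.00329 with array weights, -0.146 without muscle-rich arrays, -0.0928 with score covariates), Csn3 (0.038 in batch 1 or with MPB and TCS alone), Erg, Flg, Adipoq and Thrsp (0.0335, 0.067, 0.0464 and 0.13 without the batch term), Krt18 (-0.0812 with all short windows, -0.108 with array weights), Esr1 (-0.105 with array weights), Ms4a1 and Krt14 (-0.278 and 0.0985 with the luminal score as a covariate, -0.404 and 0.504 without B cell-rich arrays). Acta1 belongs to the muscle list and Ms4a1 to the B cell list. The scores of these lists chose the muscle-rich and B cell-rich arrays, and both were the score covariates used for Acta1. Those turns therefore follow in part from the genes' own values. With single arrays left out, the ranges were -0.204 to 0.523 for Acta1, -0.128 to 0.182 for Krt18, -0.483 to 0.00354 for Krt14, -0.0581 to 0.697 for Cited1, -0.532 to 0.234 for Csn3, -0.276 to 0.118 for Adipoq, -0.427 to 0.0948 for Thrsp and -0.117 to 0.385 for Esr1. The planned repeat in a separately deposited table was not run, since no table used here holds both chemicals. No paired analysis was possible because array numbers differ between the groups and pair no animals. With 3 TCS arrays, all of batch 1, the comparison could resolve large differences at most, and no gene was called.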
